A study of Mus musculus with 4 samples.

Results

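Apoptosis core genes and targets of the transcription factor p53 were examined in mouse pachytene spermatocytes, the male germ cells in the long pachytene stage of meiotic prophase, after exposure to BMH21. The set holds 58 genes taken by name: caspases and their adaptors, factors released from mitochondria, inhibitors of apoptosis, the BCL2 family, the death receptor pathway and p53 targets. The table used here has a row for 44 of them among 15733 protein-coding genes, and 41 of the 44 passed the filter on low counts, among 13793 genes tested. All 44 lie on autosomes. Casp1, Casp12, Aifm1, Xiap, Birc3, Bcl2, Bcl2l10, Bok, Bik, Hrk, Fas, Phlda3, Gadd45a and Eda2r were not analysed here.

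The BMH21 group consists of 2 libraries (replicates 1 and 2) from suspended testicular cells kept ex vivo for 12 h with 2.5 µM BMH21, a DNA-intercalating small molecule known for inhibiting RNA polymerase I. The mock group consists of 2 libraries from suspensions kept for the same 12 h with the solvent DMSO. In both groups pachytene cells were sorted by flow cytometry, using Hoechst to stain DNA, before RNA was extracted, so the sort followed the treatment. The strain, genotype and age of the mice, and whether animals were pooled, are not given in the sources used here. The labels speak of biological replicates without saying that they came from separate animals, so the p-values measure the spread between these libraries.

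In the mitochondrial pathway of apoptosis, BH3-only proteins release the effectors BAX and BAK1 from pro-survival BCL2 proteins, cytochrome c leaves the mitochondria, and the APAF1 apoptosome activates the initiator caspase-9, which in turn activates executioner caspases. Death receptors reach the executioners through FADD and caspase-8, and inhibitor of apoptosis (IAP) proteins hold caspases in check. The protein p53 adds to this through target genes such as Pmaip1 and Bbc3, and pachytene is a stage at which defective spermatocytes are removed by cell death.

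Between 30964370 and 41548269 counts over the listed genes were available per library. The 10 pachytene markers listed for the check of the sort summed to 11247 and 11439 CPM (read counts scaled to the size of each library) in the BMH21 libraries and to 11100 and 11259 CPM in the mock libraries. Of these 10 markers 9 were called, 5 higher and 4 lower (90.0%, against 29.1% of all tested genes), with log2 fold changes from -0.16 for Piwil1 to 0.46 for Sycp3. Of the markers of other cells, 10 of 10 spermatid genes had a row and summed to 474 and 479 CPM in BMH21 and 463 and 452 CPM in mock, with 0 called. Of 8 spermatogonial markers 7 had a row and summed to 14.1 and 16.9 CPM in BMH21 and 17.9 and 19.4 CPM in mock, and 2 of the 5 tested, Zbtb16 and Kit, fell. The call of Kit was lost when any single library was omitted and in DESeq2, that of Zbtb16 without BMH21 replicate 1 or mock replicate 2. Sertoli markers (3 of 8 with a row) summed to 1.51 to 2.75 CPM in BMH21 and 2.62 to 3.72 CPM in mock, Leydig and peritubular markers (5 of 7), of which Star fell (not called without BMH21 replicate 1), to 6.61 to 7.93 CPM in BMH21 and 9.70 to 9.85 CPM in mock, and leukocyte markers (6 of 6) to 6.64 to 6.94 CPM in BMH21 and 6.89 to 8.25 CPM in mock. Clu and Acta2 were at 0 in 1 BMH21 library each, and Cyp17a1 at 0 in 1 mock library. The part of these cells in the results below was not tested. In bulk RNA, fewer cells of a type and less RNA per cell cannot be told apart.

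The question was which of these mRNAs differ between BMH21 and mock cells. Both tested initiator caspase mRNAs and both tested IAP mRNAs of the set rose, while the IAP gene Birc5, outside the set, fell. Of the apoptosome and mitochondrial factors 1 of 6 rose, and of the BCL2 family 2 of 12. In the death receptor pathway 1 of 5 members fell, and p53 targets went both ways. Of 41 tested members, 10 rose (Casp2, Casp9, Cycs, Birc2, Birc6, Bcl2l1, Pmaip1, Trp53inp1, Ei24 and Perp), 5 fell (Ripk1, Sesn1, Plk2, Pidd1 and Ckap2) and 26 were not called. Calls rest on edgeR's quasi-likelihood test with p-values adjusted by Benjamini-Hochberg over all tested genes, at a threshold of 0.05. The share called was 36.6%, against 29.1% of all tested genes and 27.9% of the autosomal ones; for higher calls the background was 16.5% and for lower calls 12.5%. Among the 19 members with a mean of at least 10 CPM, 9 were called, against 38.4% of the autosomal genes at that level. The median log2 fold change was 0.11 over the members and 0.00 over all tested genes. Regardless of sign, the median size of the change was 0.49 over the members and 0.18 over all tested genes. These sizes were not matched for level: 19 of 41 members averaged at least 10 CPM, against 7560 of 13793 tested genes. Several of the largest changes were in scarce members, such as Perp (3.34, mean 0.310 CPM), Cycs (2.25, 1.38 CPM) and Bmf (-1.35, 0.360 CPM), while Pmaip1 (1.69) averaged 11.7 CPM. Both BMH21 libraries lay above both mock libraries for 20 tested members and below them for 11; over all tested genes this held for 30.9% and 29.9%. The number of higher calls was 10 under every alternative tried, while the number of lower calls was 2 in DESeq2 (Ckap2 and Pidd1), 2 to 5 with 1 library left out, 6 with a minimum count of 50 and 7 under upper quartile scaling.

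**Figure D1:**
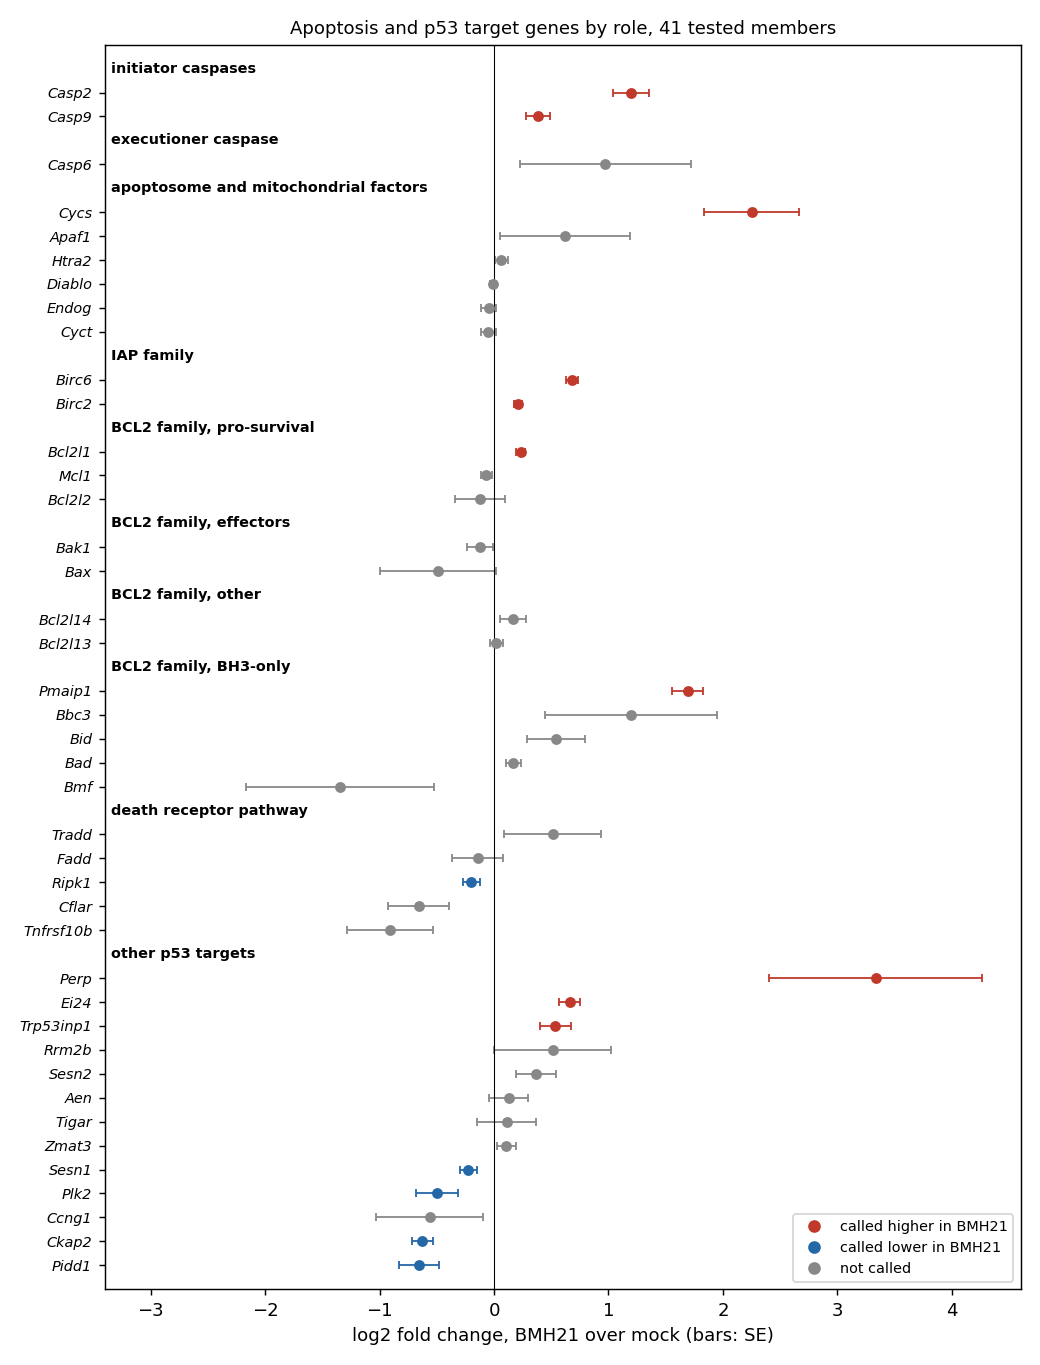
The log2 fold change of BMH21 over mock (horizontal axis, bars show the SE) is plotted for the 41 tested members, grouped by role; red members were called higher, blue lower and grey not called. Both tested initiator caspases and both tested IAP genes of the set lie to the right of 0, while 13 other p53 targets spread from -0.65 to 3.34.

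Of the initiator caspases, which start the cascade, both tested members rose, and 16.5% of all tested genes were called higher. Casp2 (chromosome 6, 42264985 to 42282508 on GRCm38, + strand), which encodes the initiator that is recruited by PIDD1, had 10.4 and 9.90 CPM in the BMH21 libraries, against 4.38 and 4.48 CPM in the mock libraries. The groups did not overlap, and the log2 fold change was 1.20 ± 0.16 (SE, 2.30-fold, adjusted p = 4.48e-09). Casp9 (chromosome 4, 141793612 to 141815976, + strand), which encodes the initiator activated on the apoptosome, had 18.3 and 18.8 CPM in BMH21 and 14.2 and 14.3 CPM in mock. Its rise was smaller, with a log2 fold change of 0.38 ± 0.11 (SE, adjusted p = 0.00347). Casp8, the initiator of the death receptor route, was scarce, with 2 and 2 counts in BMH21 and 4 and 12 counts in mock, and did not pass the filter. Summed over the 3 genes, initiator caspase mRNA reached 28.8 CPM in each BMH21 library, against 18.6 and 19.2 CPM in the mock libraries. The executioner Casp6 had 22 and 11 counts in BMH21 and 5 and 12 in mock, and was not called (log2 fold change 0.97 ± 0.75, SE, adjusted p = 0.373). With these few counts its log2 fold change was 0.28 without BMH21 replicate 1, 0.31 without mock replicate 1, 1.44 without BMH21 replicate 2 and 1.97 without mock replicate 2.

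The partner of caspase-2 moved the other way. Pidd1 (chromosome 7, 141438113 to 141444025, - strand), a p53 target whose product assembles the caspase-2 activating platform, had 4.47 and 4.40 CPM in BMH21, against 6.79 and 7.17 CPM in mock. It fell by 0.65 ± 0.18 (SE) on the log2 scale with an adjusted p of 0.00246, and the groups did not overlap. Cradd, the adaptor that joins the PIDD1 and caspase-2 proteins, averaged 1.75 ± 0.47 CPM in BMH21 and 1.94 ± 0.12 CPM in mock (SD, n = 2 each) and was not called in the edgeR fit (adjusted p = 0.794).

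Among the apoptosome and mitochondrial factors, the somatic cytochrome c gene Cycs was the 1 member of 6 tested that was called (16.7%, against 29.1% of all tested genes), and it rose. Cytochrome c carries electrons in the respiratory chain and, once released, is the trigger of the apoptosome; male germ cells also express a testis paralog, Cyct. Coding sequences of the pair, taken from the GENCODE M21 transcripts, are shown for their opening 120 bases because the comparison depends on telling the transcripts apart; capitals mark the positions at which the genes differ.
Cyct: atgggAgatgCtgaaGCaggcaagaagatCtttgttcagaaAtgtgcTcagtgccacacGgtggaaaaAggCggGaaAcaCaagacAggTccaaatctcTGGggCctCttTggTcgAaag
Cycs: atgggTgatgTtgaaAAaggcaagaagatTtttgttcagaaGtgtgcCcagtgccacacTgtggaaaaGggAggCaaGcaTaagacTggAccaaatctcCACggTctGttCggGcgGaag
The coding sequences are 318 bases long in each gene, 242 positions (76.1%) are identical without gaps, and the longest identical run is 14 bases. In the stretch shown 23 positions differ. Cyct lies on chromosome 2 (coding positions 76354088 to 76356248, - strand) and Cycs on chromosome 6 (50565237 to 50565660, - strand).

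Cyct mRNA was the dominant form in every library. Cyct had 1562 and 1705 counts in BMH21 and 2017 and 1515 counts in mock, which is 47.1 and 46.0 CPM in BMH21 and 48.1 and 48.5 CPM in mock. Its log2 fold change was -0.05 ± 0.07 (SE, adjusted p = 0.633). Cycs had 78 and 81 counts in BMH21, against 14 and 20 counts in mock, or 2.35 and 2.19 CPM in BMH21 against 0.334 and 0.640 CPM in mock. Its log2 fold change was 2.25 ± 0.42 (SE, adjusted p = 1.17e-05), and both BMH21 libraries lay well above both mock libraries. The size rested in part on 1 mock library, since it was 1.82 without mock replicate 1 and 2.75 without mock replicate 2.

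Scaled to exon length, Cyct averaged 71.1 CPM per kb in BMH21 and 73.7 in mock, and Cycs 0.667 CPM per kb in BMH21 and 0.143 in mock. Per kb, Cyct exceeded Cycs 104-fold and 109-fold in the BMH21 libraries and 749-fold and 394-fold in the mock libraries. Of the raw counts of the pair, not scaled to length, Cycs made up 4.76% (95% exact binomial interval 3.78 to 5.90) and 4.54% (3.62 to 5.61) in the BMH21 libraries. In the mock libraries it made up 0.689% (0.377 to 1.15) and 1.30% (0.798 to 2.01) of the raw counts. These intervals cover counting error only. The log2 ratio of Cyct to Cycs counts, which needs no scaling between libraries, averaged 4.35 ± 0.05 in BMH21 and 6.66 ± 0.65 in mock (SD, n = 2 each), a difference of -2.31 and thus a 4.97-fold shift toward Cycs. An exact two-sided permutation test over the 4 libraries gave p = 0.333, the smallest value that this design allows. Of the 50-base stretches of the Cycs transcripts, 25.9% also occur in transcripts of 43 other annotated genes, so the assignment of reads to Cycs is uncertain; 0 such stretches of Cyct occur in other genes' transcripts.

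**Figure D2:**
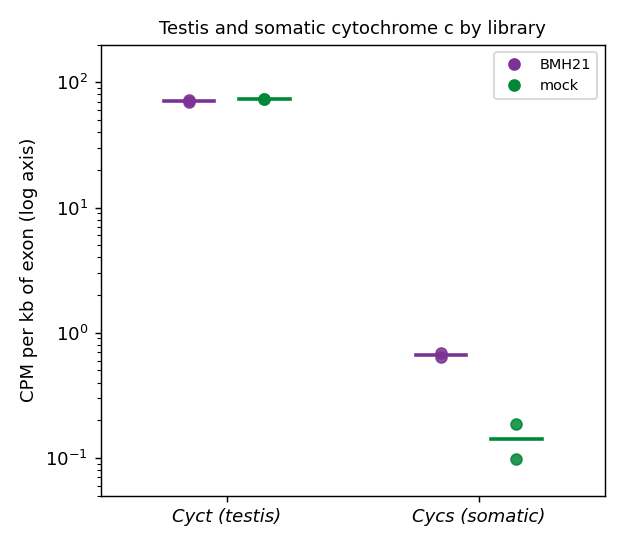
The level of Cyct and Cycs is plotted for each library in CPM per kb of exon on a log axis; purple points are BMH21 libraries, green points mock libraries, and horizontal lines the group means. Cyct averages 71.1 in BMH21 and 73.7 in mock, and Cycs averages 0.667 in BMH21 and 0.143 in mock.

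The other mitochondrial factors were abundant and close to level between the groups. Diablo, which encodes the antagonist of IAP proteins also called SMAC, had 459 and 467 CPM in BMH21 and 462 and 469 CPM in mock (log2 fold change -0.01 ± 0.03, SE). Htra2, the gene of a mitochondrial serine protease, had 70.3 and 65.5 CPM in BMH21 and 63.4 and 66.8 CPM in mock (0.06 ± 0.06, SE). Endog, which encodes a mitochondrial nuclease, averaged 45.6 ± 0.22 CPM in BMH21 and 47.2 ± 1.5 CPM in mock (SD, n = 2 each). None of these 3 was called by edgeR, at adjusted p of 0.48 or more, nor by DESeq2. Exons of Diablo, Htra2 and Endog overlap those of a neighbour on the opposite strand (B3gnt4 over 21.5%, Aup1 over 25.6% and Spout1 over 35.7% of their exon length), and whether reads were counted by strand is not stated in the labels. Of the 50-base stretches of Diablo transcripts, 17.6% also occur in those of the annotated gene Gm49027. Of the called members, exons of Casp9, Birc6, Ei24 and Ripk1 meet other annotated genes, each over 1.8% to 6.7% of their length. Apaf1, the scaffold of the apoptosome, was scarce, at 0.875 and 0.648 CPM in BMH21 and 0.477 and 0.512 CPM in mock (adjusted p = 0.473).

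Both tested IAP genes of the set rose, and 16.5% of all tested genes were called higher. Birc5, an IAP gene outside the set, fell (log2 fold change -0.16, edgeR adjusted p = 0.0125), a call that was lost with a library left out. Birc6 (chromosome 17, 74528295 to 74703356, + strand), which encodes a giant ubiquitin ligase that restrains caspases, had 82.9 and 88.3 CPM in BMH21, against 52.8 and 54.1 CPM in mock. The log2 fold change was 0.68 ± 0.06 (SE, 1.60-fold, adjusted p = 1.37e-16). Birc2 (chromosome 9, 7818227 to 7837064, - strand), the gene of cIAP1, a ubiquitin ligase of the tumour necrosis factor pathway, had 235 and 242 CPM in BMH21, against 209 and 204 CPM in mock. It rose by 0.21 ± 0.03 (SE) on the log2 scale, with an adjusted p of 5.22e-07. Neither gene's groups overlapped, as held for 30.9% of all tested genes in that direction. Both genes were called under all 10 alternatives tried. Summed, the pair reached 318 and 330 CPM in BMH21 and 262 and 258 CPM in mock.

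In the BCL2 family 2 of 12 tested members rose, 0 fell and 10 were not called by edgeR, a share called of 16.7% against 29.1% of all tested genes; at an unadjusted p under 0.05 there were 4, and DESeq2 called the same 2. The rise was strongest for the BH3-only gene Pmaip1 (chromosome 18, 66458533 to 66465565, + strand), which encodes NOXA, a p53 target that binds the pro-survival protein MCL1. Pmaip1 had 17.7 and 18.0 CPM in BMH21, against 6.10 and 4.86 CPM in mock, with no overlap. Its log2 fold change was 1.69 ± 0.13 (SE, 3.23-fold, adjusted p = 3.40e-17). The pro-survival gene Bcl2l1 (chromosome 2, 152780668 to 152831728, - strand), which encodes BCL-XL, had 187 and 187 CPM in BMH21, against 154 and 165 CPM in mock. Its log2 fold change was 0.23 ± 0.04 (SE, adjusted p = 5.59e-07).

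Mcl1, the gene of the pro-survival partner of NOXA, had 90.4 and 87.9 CPM in BMH21 and 95.0 and 91.7 CPM in mock, with a log2 fold change of -0.07 ± 0.05 (SE, adjusted p = 0.331). The pro-survival gene Bcl2l2 averaged 3.37 ± 0.12 CPM in BMH21 and 3.69 ± 0.44 CPM in mock (SD, n = 2 each). It shares 12.1% of its 50-base stretches with the annotated gene Gm20521. The BH3-only gene Bad, which links growth factor signals to the family, had 48.3 and 48.8 CPM in BMH21 and 42.6 and 43.9 CPM in mock, and missed the threshold (log2 fold change 0.17, adjusted p = 0.0501). It passed in edgeR at an adjusted p of 0.0487 under the stricter count filter. Exons of Bad overlap Gpr137 on the opposite strand over 20.5% of their length. The remaining BH3-only genes were scarce: Bid averaged 3.22 CPM in BMH21 and 2.20 CPM in mock, and Bbc3 (PUMA), Bmf and Bcl2l11 (BIM) each averaged under 1 CPM in both groups. None of these 4 was called, and Bcl2l11 did not pass the filter. Exons of Bid overlap Bcl2l13 on the opposite strand over 17.7% of their length.

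The effectors that permeabilize the outer mitochondrial membrane differed in level but not detectably between groups. Bak1 had 14.2 and 14.8 CPM in BMH21 and 17.1 and 14.3 CPM in mock (log2 fold change -0.12 ± 0.11, SE, adjusted p = 0.48), and Bax had 0.664 and 0.783 CPM in BMH21 and 0.572 and 1.50 CPM in mock (-0.49 ± 0.51, SE, adjusted p = 0.537). Per kb of exon, Bak1 averaged 6.03 CPM in BMH21 and 6.53 CPM in mock, and Bax 0.459 CPM in BMH21 and 0.658 CPM in mock. Exons of Bak1 overlap Ggnbp1 on the opposite strand. Those of Bax overlap the annotated gene Gm45808 on the same strand over 12.2% of their length, and 8.51% of the 50-base stretches of Bax also occur in Gm45808. Of the less studied relatives, Bcl2l13, a mitochondrial outer membrane protein gene, averaged 72.0 ± 6.1 CPM in BMH21 and 71.0 ± 0.08 CPM in mock, and Bcl2l14 15.3 ± 0.19 CPM in BMH21 and 13.6 ± 0.68 CPM in mock (SD, n = 2 each). Summed by role, BH3-only mRNA reached 70.1 and 70.9 CPM in BMH21, against 51.7 and 52.0 CPM in mock, and pro-survival mRNA 281 and 279 CPM in BMH21, against 252 and 261 CPM in mock. The effectors summed to 14.8 and 15.6 CPM in BMH21 and 17.7 and 15.8 CPM in mock.

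In the death receptor pathway 1 of 5 tested members fell and 0 rose (20.0% called, against 29.1% of all tested genes). Ripk1 (chromosome 13, 34002363 to 34037147, + strand), which encodes a kinase and scaffold of receptor signalling, had 35.9 and 37.3 CPM in BMH21, against 43.1 and 40.8 CPM in mock. Its log2 fold change was -0.20 ± 0.07 (SE, adjusted p = 0.0324) in edgeR. The call was lost in DESeq2 (adjusted p = 0.0899) and without mock replicate 1 (-0.15), BMH21 replicate 1 (-0.17) or BMH21 replicate 2 (-0.23). Cflar, the gene of the caspase-8 inhibitor FLIP, had 1.81 and 2.11 CPM in BMH21 and 3.48 and 2.69 CPM in mock, and the receptor gene Tnfrsf10b 0.996 and 0.917 CPM in BMH21 and 1.60 and 2.02 CPM in mock. Both sets of groups were apart, as held for 29.9% of all tested genes in that direction. The edgeR adjusted p was 0.054 for Cflar and 0.0632 for Tnfrsf10b, and both passed under upper quartile scaling. The adaptor genes Fadd and Tradd averaged 3.36 and 1.29 CPM in BMH21 and 3.68 and 0.901 CPM in mock, and neither was called. Summed over the pathway, the level was 43.7 and 44.7 CPM in BMH21 and 53.3 and 49.5 CPM in mock.

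Of the 13 other p53 targets tested, 3 rose, 4 fell and 6 were not called. The share called was 53.8%, beside 29.1% of all tested genes, with a median log2 fold change of 0.11. Ei24 (chromosome 9, 36779159 to 36797393, - strand), which encodes an endoplasmic reticulum protein induced by p53, had 28.2 and 27.3 CPM in BMH21, against 17.4 and 17.7 CPM in mock. It rose by 0.66 ± 0.09 (SE) on the log2 scale, with an adjusted p of 2.71e-08. Trp53inp1 (chromosome 4, 11156431 to 11174379, + strand), whose product promotes p53 activity and autophagy, had 11.8 and 11.9 CPM in BMH21, against 8.24 and 8.06 CPM in mock, a log2 fold change of 0.54 ± 0.13 (SE, adjusted p = 0.00113). Perp, the gene of a membrane protein of cell junctions, was nearly absent, with 20 and 20 counts in BMH21 and 4 and 0 counts in mock. Its fitted log2 fold change of 3.34 ± 0.93 (SE, adjusted p = 0.00369) depended on those few counts: it was 7.28 without mock replicate 1 and lost its call at 2.54 without mock replicate 2.

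The targets that fell, beside Pidd1, were Ckap2, Sesn1 and Plk2. Ckap2 (chromosome 8, 22168160 to 22185819, - strand), which encodes a microtubule-associated protein of the mitotic spindle, had 18.7 and 21.6 CPM in BMH21, against 28.5 and 34.0 CPM in mock, a log2 fold change of -0.63 ± 0.09 (SE, adjusted p = 1.01e-07). Sesn1 (chromosome 10, 41809935 to 41908424, + strand), the gene of a stress-induced inhibitor of mTORC1 signalling, had 31.7 and 37.2 CPM in BMH21, against 40.8 and 39.7 CPM in mock. It fell by 0.22 ± 0.08 on the log2 scale (SE, adjusted p = 0.0202) in edgeR. Plk2 (chromosome 13, 110395046 to 110400844, + strand), a polo-like kinase gene, had 4.17 and 4.37 CPM in BMH21, against 6.05 and 6.01 CPM in mock, and fell by 0.50 ± 0.18 on the log2 scale (SE, adjusted p = 0.0311). All 4 lowered genes showed no overlap between groups, as did 29.9% of all tested genes in that direction. The calls of Sesn1 and Plk2 were lost in DESeq2 (adjusted p of 0.0832 and 0.118), that of Sesn1 also without mock replicate 1 (-0.20) or BMH21 replicate 1 (-0.12), and that of Plk2 with any 1 library left out (-0.54 to -0.47). Beside these falls, the spermatogonial markers Zbtb16 (-0.95) and Kit (-0.58) fell, while Uchl1 (-0.07), Gfra1 (-0.04) and Nanos3 (0.25) were not called and Dmrt1 and Sall4 were too scarce to test; the part of spermatogonia in these falls was not tested.

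**Figure D3:**
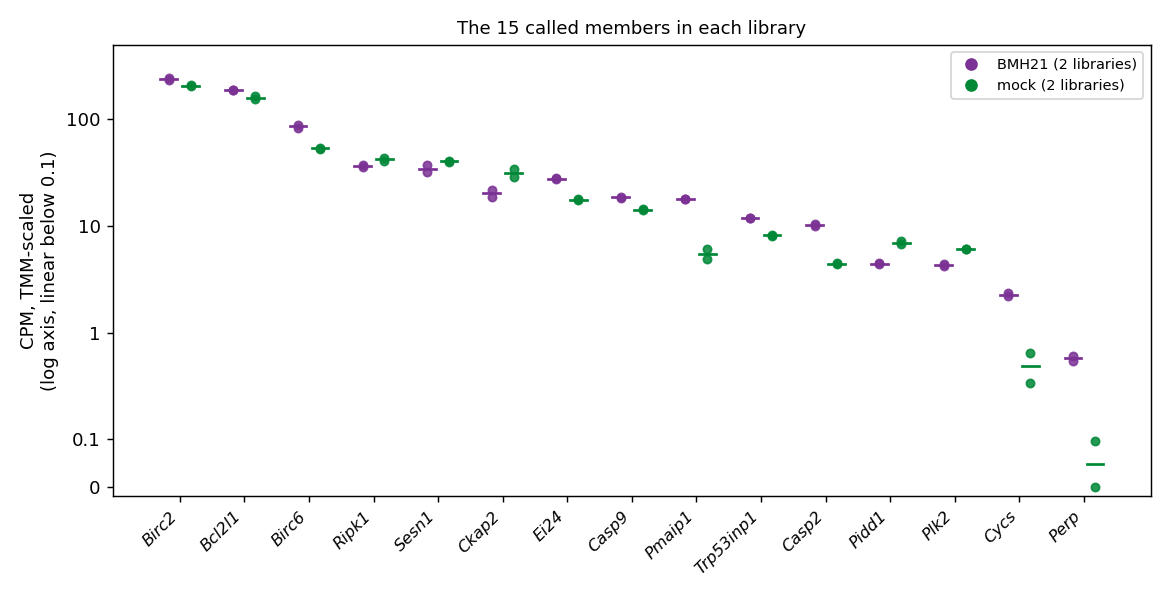
The level of the 15 called members is plotted for each library in CPM, on a log axis that is linear below 0.1; purple points are BMH21 libraries, green points mock libraries, and horizontal lines the group means. The 2 points of a group lie close together for most genes, and the groups are widest apart for Perp, Cycs, Pmaip1 and Casp2.

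The other targets that did not pass the test ran from 0.746 to 30.7 CPM in BMH21. Zmat3, which encodes an RNA-binding zinc-finger protein, had 30.0 and 31.4 CPM in BMH21 and 29.8 and 27.2 CPM in mock. Sesn2 averaged 6.55 ± 0.35 CPM in BMH21 and 5.12 ± 0.90 CPM in mock (SD, n = 2 each, log2 fold change 0.37, adjusted p = 0.114), beside the fall of its paralog Sesn1. Aen, an apoptosis nuclease gene, averaged 6.08 CPM in BMH21 and 5.57 CPM in mock, the ribonucleotide reductase subunit gene Rrm2b 0.942 CPM in BMH21 and 0.653 CPM in mock, and Ccng1, a cyclin gene, 0.746 CPM in BMH21 and 1.09 CPM in mock. Tigar, a regulator of glycolysis, had 3.74 and 2.27 CPM in BMH21 and 2.91 and 2.62 CPM in mock, with overlapping groups. Psrc1 had 0 and 12 counts in BMH21 and 6 and 6 counts in mock, and was not tested.

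Promoter windows from RefSeq (GRCm38.p6, 250 bases before to 50 after the annotated start) were matched by symbol for 36 of the 44 members with a row and were searched for the p53 consensus decamer, a motif that is its own reverse complement, so that each match covers both strands. It occurred in 8 of the 36 (22.2%), against 9.55% of 27025 genes with a window. Of these 8 members, 5 belong to the role of other p53 targets, in which 10 members had a window. The higher share in the set thus lay largely in genes chosen as p53 targets. Among the members the decamer was found in 2 of 7 that rose, 2 of 5 that fell and 4 of 21 that were not called. Of the 2 that rose, Ei24 has its match before the RefSeq start. The match of the other ends after that start and is counted but not shown. A pair of decamers within 13 bases of each other occurred in 0 members and in 0.074% of all genes. The windows around the decamer are shown for the called p53 targets, with the decamer in capitals, because they include a target that rose (Ei24, chr9:36797335-36797394, - strand) and targets that fell (Ckap2, chr8:22185988-22186047, - strand, and Sesn1, chr10:41887241-41887300, + strand).
Ei24: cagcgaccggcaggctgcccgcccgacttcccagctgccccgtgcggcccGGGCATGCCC
Ckap2: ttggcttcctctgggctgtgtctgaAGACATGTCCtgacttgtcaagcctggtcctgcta
Sesn1: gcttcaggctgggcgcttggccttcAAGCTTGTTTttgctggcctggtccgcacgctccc
The decamer starts at -10 from the RefSeq start in Ei24, -203 in Ckap2 and -173 in Sesn1. These starts differ from the ends of the GENCODE genes given above. The Sesn1 window lies far inside its GENCODE gene (41809935 to 41908424, + strand). The Ei24 decamer also lies inside its gene (36779159 to 36797393, - strand), after the GENCODE start. A match of letters is a description and no measure of binding.

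**Figure D4:**
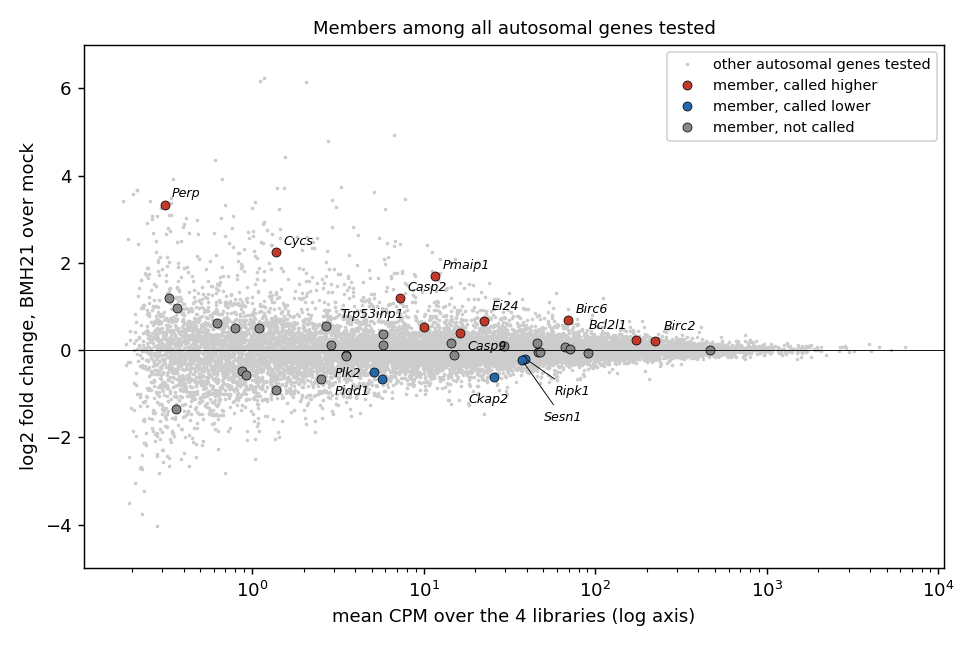
The log2 fold change of BMH21 over mock (vertical axis) is plotted against the mean CPM over the 4 libraries (log axis) for the autosomal genes tested, in grey, with the 41 tested members on top in red (higher), blue (lower) or dark grey (not called). Perp (3.34) and Cycs (2.25) lie high at low levels, Pmaip1 (1.69) and Casp2 (1.20) near 10 CPM, and Birc2 (0.21) and Bcl2l1 (0.23) at high levels with small changes.

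Further genes of the same pathways, taken from longer lists, moved in both directions. Of 54 other apoptosis genes 45 had a row and 36 were tested; 8 rose and 4 fell, a share called of 33.3% beside 29.1% of all tested genes, with a median log2 fold change of 0.05. Those that rose with the smallest p were Api5, an apoptosis inhibitor gene (0.25), Parp1, the poly(ADP-ribose) polymerase gene and caspase substrate (0.16), Bnip3, a mitochondrial BH3-related gene (0.87), Bag4 (0.23), the channel gene Vdac3 (0.09) and Traf3 (0.94). Those that fell were Bcl2l15 (-0.73), the IAP gene Birc5, also known as survivin (-0.16), the receptor adaptor gene Traf2 (-0.22) and Bag6 (-0.06).

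Of 39 other p53 targets 33 had a row and 30 were tested. Of these, 5 rose and 5 fell, a share called of 33.3% beside 29.1% of all tested genes, with a median log2 fold change of -0.01. Btg1 (0.25), Fbxw7 (0.31), Mdm2, the gene of the ubiquitin ligase of p53 (0.11), Xpc (0.72) and Ccng2 (0.47) rose. Trp53inp2 (-0.94), Rev3l (-0.30), Rpa1 (-0.09), Dram1 (-1.11) and Ppm1d (-0.11) fell. Trp53inp2 averaged 13.2 ± 0.60 CPM in BMH21 and 25.5 ± 1.6 CPM in mock (SD, n = 2 each), opposite in direction to its paralog Trp53inp1. Cdkn1a, the p53 target that encodes the cell cycle inhibitor p21, averaged 0.276 ± 0.12 CPM in BMH21 and 0.215 ± 0.10 CPM in mock (SD, n = 2 each), and was not called in edgeR (adjusted p = 0.803). Of the 20 called genes named from these longer lists, Api5, Parp1, Btg1, Fbxw7 and Trp53inp2 were called under every alternative tried, and the other 15 lost the call with at least 1 library left out, 7 of them also in DESeq2.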

How the data were processed

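The authors deposited 1 table with raw read counts per gene and library, from which all tests start. Its size-factor-normalized values (signal, per the file headers) are those counts times 1 constant per library and entered no test. Per the labels, the library kit was a stranded one for mRNA; the submitters' processing notes name the build mm10 and fastp, STAR, SAMtools, featureCounts and DESeq2 without versions or settings. Positions are those of GENCODE M21 on GRCm38, 1-based, joined by gene identifier, and exon lengths are unions of its exons.

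Counts were analysed with edgeR 4.0.16 (R 4.3.3): filterByExpr with a minimum count of 10, TMM scaling and the quasi-likelihood test on group alone, with calls at an adjusted p under 0.05 over 13793 genes. The SE is the log2 fold change divided by the square root of F, which is too small for large rises from few counts. Within a group the libraries differed beyond counting noise (chi-square over degrees of freedom: 3.71 in BMH21, 3.21 in mock), so each was kept as a replicate. Simulated counts of 13793 genes for this comparison gave 181 calls, 5 of them false. Of 50 changed genes per size, 31 were found at 1.25-fold, 45 at 1.5-fold and 50 at 2-fold. The changed genes were drawn from those at 1 CPM or more, and every gene was given 1 common spread between replicates (4.09%). Far fewer genes were changed than the 4013 called in the data. These rates therefore do not carry over to members under 1 CPM or to genes with a wider spread. The members and lists were chosen with earlier results of these data known. Named genes are the called members, Cycs, Cyct, the 2 most abundant members of each role and, of the longer lists, up to 6 called genes in each direction with the smallest p. Cradd, Cdkn1a, the marker genes and the other uncalled members with values were named after their values were seen. Alternatives were DESeq2 1.42.0, other scalings and filters (minimum count 50 or none), the replicate number as a block, and leaving out each library.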

Additional observations from a re-analysis of the deposited data

How the results depend on the processing

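The 10 higher members were called under every alternative tried except that Perp lost its call without mock replicate 2 and was not tested with a minimum count of 50. The count of higher members stayed at 10 in each because other members passed in its place. The count of lower members, 5, was 2 in DESeq2 1.42.0, 2 to 5 with 1 library left out, 6 with a minimum count of 50 and 7 under upper quartile scaling; DESeq2 kept Ckap2 and Pidd1. Of the 26 tested members that were not called, 4 passed under an alternative: Bad with a minimum count of 50 (adjusted p = 0.0487), Tnfrsf10b there and under upper quartile scaling, Cflar under upper quartile scaling and without mock replicate 2, and Sesn2 without mock replicate 2. The sign changed under upper quartile scaling for Bcl2l13 (-0.027), and with 1 library left out for 7 of the 26: the log2 fold change then ran from -0.0233 to 0.0037 for Diablo, -1.05 to 0.34 for Bax, -0.2365 to 0.0209 for Bak1, -0.0703 to 0.10 for Bcl2l13, -0.33 to 0.10 for Fadd, -3.01 to 1.01 for Bmf and -0.29 to 0.43 for Tigar. Cradd ran from -0.46 to 0.094 and Cdkn1a from -0.15 to 0.92. Over all genes, 4013 were called, and 2997 to 3549 with 1 library left out; upper quartile scaling moved the share of higher calls to 42.1%, against 56.9%. Cyct to Cycs differed by -2.77 to -1.86 with 1 library left out. Same-numbered libraries did not deviate together (correlation 0.0125); with the replicate number as a block, 10 members rose and 5 fell, the same 15 genes, Kit lost its call (-0.58), and the Cyct to Cycs difference was -2.31. Depth limits genes under about 1 CPM, such as Casp8, Bcl2l11, Psrc1, Bax and Bbc3, where only large differences could pass.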
